A study of Mus musculus with 2 samples.

Results

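The p53 and GADD45 stress genes examined here were Trp53, Mdm2, Gadd45a, Gadd45b, Gadd45g, Ccng1, Bbc3, Sesn1, Trp53inp1 and Perp, 10 of the 13739 genes measured above background. They were taken by name: every gene probe that carries one of these gene names in both scanner outputs was used, which gave 17 probes in 35 spots, out of 41174 gene probes per array. All 17 probes passed the filter on dim signals, which asked that most spots of a probe be well above background in Cy3 or Cy5 on both arrays.

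RNA of mouse keratinocytes, the main cells of the epidermis, was hybridised to 2 two-colour Agilent arrays, labelled replicates 1 and 2. On each array the Cy3 dye carried wild type keratinocyte RNA and the Cy5 dye carried RNA of CHUK-LoxP mutant keratinocytes, which the labels describe as deleted for Chuk. The labels give no strain, age, Cre driver, culture state or treatment for either group, nor whether replicates 1 and 2 stem from separate animals or cultures. The p-values thus reflect the spread of these 2 arrays alone, which may be technical. Since no dye swap is named, dye and genotype cannot be told apart at any one probe.

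The study's title concerns IKKα, the kinase encoded by Chuk, in skin upkeep and skin cancer. Values are log2 ratios of Cy5 over Cy3 after loess normalisation within each array, given for array 1 and array 2 and as their mean ± SD (n = 2). Rose and fell mean that the mean differed from 0 in the limma fit over all tested probes at an adjusted p below 0.05 (Benjamini-Hochberg), with the channel labelled Chuk-deleted higher or lower. Adjusted p-values below are from that fit.

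Signal of the 2 Chuk probes was higher, not lower, in Cy5 on both arrays (means 0.74 ± 0.02 and 0.85 ± 0.11, and under the spike-in scaling explained below -0.02 and 0.10). The place of these probes relative to the deleted part is not given, so every direction below rests on the labels of the channels. Of the keratinocyte markers, 6 of 6 basal genes rose (2 higher and 2 lower under spike-in scaling) and 7 of 7 suprabasal genes fell (1 higher and 6 lower with median centring). Of the markers of other cells, 6 of 8 fibroblast genes rose and 1 fell (3 and 3 under spike-in scaling), 6 of 6 tested melanocyte genes fell, and only 3 of 6 leukocyte and 1 of 4 endothelial genes were above background. The zero point of the ratios depends on the centring: median centring, which sets the middle of each array to 0 without loess, lifted the median gene by 0.53 on the log2 scale, while spike-in scaling, which subtracted from every array the mean log2 ratio of its spike-in controls, moved it by -0.76.

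The p53 protein is a transcription factor that is stabilised by DNA damage and other stress and then switches on genes of cell cycle arrest, DNA repair, metabolism and cell death, while Mdm2, itself a target, marks p53 for degradation. The GADD45 proteins are small acidic stress proteins without enzyme activity that bind cell cycle regulators, the replication clamp PCNA and the stress kinase MEKK4. Gadd45a is a classical p53 target, Gadd45b is also known as a target of NF-kB and TGF-beta signalling, and Perp, a target of p53 and of its epidermal relative p63, is a membrane protein of desmosomes.

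Of the 10 genes, 4 rose (Gadd45a, Sesn1, Trp53 and Ccng1), 4 fell (Gadd45b, Gadd45g, Perp and Mdm2), and Bbc3 and Trp53inp1 passed in neither direction. Over all genes tested, 33.0% rose and 28.3% fell, so for a set of 10 genes both counts lie near the background. They are a description, and no set test was run. With loess the median of the members was -0.08, against 0.02 for all genes. With median centring alone 8 members were higher and 1 lower, against 74.8% and 7.2% of all genes. Under spike-in scaling 0 members were higher and 9 lower, against 2% and 91% of all genes. All 10 had the same sign on both arrays, as did 89.3% of all genes. Gadd45b alone changed 2-fold or more on both arrays, as did 4.7% of all genes in either direction and 3.2% downward.

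**Figure D1:**
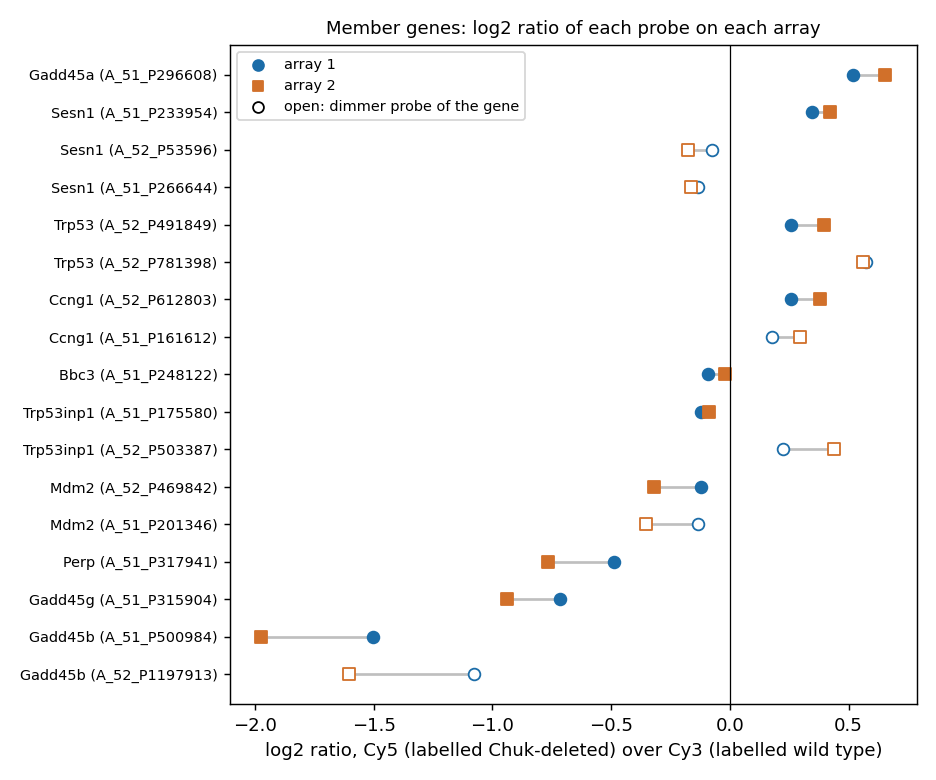
Log2 ratio of Cy5 (labelled Chuk-deleted) over Cy3 (labelled wild type) of each of the 17 member probes on array 1 (circles) and array 2 (squares), with loess normalisation; filled symbols mark the brightest probe of a gene, open symbols its dimmer probes, and a grey line joins the 2 arrays. Gadd45b lies farthest to the left at -1.50 and -1.97 and Gadd45a farthest to the right among the filled symbols at 0.52 and 0.65, while under spike-in scaling Gadd45a lay at -0.17.

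Trp53, the gene of p53 itself, was measured by a probe printed in 10 spots and by a single-spot probe. The 10-spot probe A_52_P491849 had normalised intensities, in arbitrary units, of 814 in Cy3 and 971.9 in Cy5 on array 1 and of 778.1 and 1025 on array 2. Its log2 ratios were 0.26 on array 1 and 0.40 on array 2 (mean log2 ratio 0.33 ± 0.10, 1.25-fold, adjusted p = 0.00354, limma). Its spots ranged from 0.19 to 0.35 on array 1 (median 0.25) and from 0.31 to 0.51 on array 2 (median 0.39). Every one of the spots was therefore above 0, and the ranges of the arrays overlapped only between their highest and lowest spots. The single-spot probe A_52_P781398 gave 0.57 and 0.56 (mean 0.57 ± 0.01, 1.48-fold, adjusted p = 0.00023, limma), 0.32 and 0.16 above the other on the arrays. Both probes rose, and both lay below 0 under spike-in scaling (-0.43 and -0.19).

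Mdm2, the ubiquitin ligase that restrains p53, had a 10-spot and a single-spot probe as well. The brighter single-spot probe A_52_P469842 had normalised intensities of 10620 in Cy3 and 9749 in Cy5 on array 1 and of 7378 and 5920 on array 2. Its log2 ratios were -0.12 and -0.32 (mean -0.22 ± 0.14, 1.17-fold lower, adjusted p = 0.0246, limma). The 10-spot probe A_51_P201346 gave -0.13 and -0.35 (mean -0.24 ± 0.16, adjusted p = 0.0207, limma). Its spots ran from -0.18 to -0.08 on array 1 and from -0.44 to -0.28 on array 2, so the spots of the 2 arrays did not overlap. The fall was small on array 1 and larger on array 2 by both probes, which differed from each other by 0.01 and 0.04. Neither probe passed with the software's own processed signals (-0.22 with adjusted p = 0.119 and -0.27 with adjusted p = 0.0826, limma), and with median centring alone both lay above 0 (0.49 and 0.35), which is -0.04 and -0.18 once the shift of the median gene is taken off.

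The GADD45 paralogs went apart: Gadd45a rose with loess (-0.17 under spike-in scaling), while Gadd45b and Gadd45g fell. Gadd45b was the lowest of the 10 genes on both arrays, and only 1.5% of all genes had a lower mean. Because the 3 paralogs differ in response, their promoter sequences are shown together, as the 250 bases before the annotated start in RefSeq (GRCm38.p6), 5′ to 3′ on the gene's strand. Capitals mark matches on either strand to the CCAAT box, to the GC box of letters GGGCGG, to the TATA box of letters TATAAA or to the p53 half-site.
Gadd45a, chr6:67037408-67037657, minus strand: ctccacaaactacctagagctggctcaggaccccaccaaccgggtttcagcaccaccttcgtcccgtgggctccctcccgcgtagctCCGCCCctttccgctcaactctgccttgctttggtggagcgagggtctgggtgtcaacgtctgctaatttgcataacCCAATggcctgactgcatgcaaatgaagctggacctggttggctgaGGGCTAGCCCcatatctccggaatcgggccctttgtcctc
Gadd45b, chr10:80929841-80930090, plus strand: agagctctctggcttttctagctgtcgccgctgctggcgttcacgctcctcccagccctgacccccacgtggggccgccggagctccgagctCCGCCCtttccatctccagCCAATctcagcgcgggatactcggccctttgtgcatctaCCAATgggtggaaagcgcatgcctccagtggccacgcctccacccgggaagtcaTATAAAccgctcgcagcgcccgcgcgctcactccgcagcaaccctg
Gadd45g, chr13:51846425-51846674, plus strand: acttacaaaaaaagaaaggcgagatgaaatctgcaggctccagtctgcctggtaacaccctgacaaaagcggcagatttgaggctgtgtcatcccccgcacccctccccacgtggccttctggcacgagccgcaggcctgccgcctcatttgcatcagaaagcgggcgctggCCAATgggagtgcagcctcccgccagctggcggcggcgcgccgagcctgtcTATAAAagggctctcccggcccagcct

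The capitals show a TATAAA match 46 bases before the start in Gadd45b and 27 bases before it in Gadd45g, and none in Gadd45a. The p53 half-site has a match 40 bases before the start in Gadd45a and none in the windows of the other two. CCAAT is present in all 3 windows, at 86 bases before the start in Gadd45a, at 139 and 100 in Gadd45b and at 78 in Gadd45g. GGGCGG, read here on the opposite strand as CCGCCC, is present in Gadd45a and Gadd45b. The windows hold 11, 22 and 16 CpG dinucleotides in the order printed, at 59.2%, 65.2% and 62.0% G and C.

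Among all 32851 mouse RefSeq promoter windows of the same length, 12.4% held TATAAA, 7.13% the p53 half-site, 33.8% CCAAT and 32.7% GGGCGG. The other motifs searched, the NF-kB site (3.90% of windows), the AP-1 site TGANTCA (6.75%) and the CRE TGACGTCA (1.55%), had no match in the 3 GADD45 windows. No capitalised match overlapped another. A match is a run of letters and not a measured binding site, and no match says only that these letters are not in this window. Of the 10 genes, 8 had a promoter in the table, with 11 starts among them. The p53 half-site was also matched in Ccng1, Mdm2, Trp53 and 1 of the 2 starts of Sesn1. By their brightest probes with loess, Mdm2 fell while Ccng1, Trp53 and Sesn1 rose, and a link between match and direction was not tested. The NF-kB site was matched only in 1 of the 3 starts of Bbc3, as 2 overlapping matches.

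Gadd45a had a normalised intensity of 4127 in Cy3 and 5907 in Cy5 on array 1, and of 2911 and 4582 on array 2. The log2 ratios of its single probe, A_51_P296608, were 0.52 and 0.65 (mean 0.59 ± 0.10, 1.50-fold, adjusted p = 0.000324, limma). Cy5 was the brighter channel on both arrays, and 92.8% of all genes had a lower mean. After spike-in scaling the value was -0.17 and no longer passed.

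Gadd45b, whose brighter probe is A_51_P500984, read 27720 in Cy3 and 9769 in Cy5 on array 1 and 14290 and 3639 on array 2. The log2 ratios were -1.50 and -1.97 (mean -1.74 ± 0.33), which is 2.84-fold lower on array 1, 3.93-fold lower on array 2 and 3.34-fold lower by the mean (adjusted p = 6.74e-05, limma). A second probe, A_52_P1197913, gave -1.08 and -1.60 (mean -1.34 ± 0.37, 2.53-fold lower, adjusted p = 0.000205, limma). The Cy3 channel was brighter on both arrays by both probes after normalisation, and the probes differed by 0.43 and 0.37. Before background correction and loess, the brighter probe read 16170 in Cy3 and 16750 in Cy5 on array 1 and 8540 and 6105 on array 2, while the median gene spot read 109.9 and 218 on array 1 and 95.2 and 171.5 on array 2. The size of the fall thus rests on the dye normalisation: it was -1.002 with median centring alone and -2.50 under spike-in scaling, and both probes were lower and past the threshold in all 8 ways of processing. The authors' deposited table gives log10 ratios of -0.45 and -0.60 for the brighter probe, with the software's error-model p = 1.54e-09 and 4.1e-13 within each array.

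Gadd45g had normalised intensities of 14740 in Cy3 and 8975 in Cy5 on array 1 and of 11760 and 6139 on array 2. Its single probe, A_51_P315904, read -0.72 and -0.94 (mean -0.83 ± 0.16, 1.77-fold lower, adjusted p = 0.000163, limma). Cy3 was the brighter channel on both arrays after normalisation, and 4.9% of all genes had a lower mean. Before background correction and loess, Cy5 was the brighter channel, as it was for the median gene spot. The probe then read 8699 in Cy3 and 15220 in Cy5 on array 1 and 7009 and 10320 on array 2. With median centring alone the value was -0.10 and did not pass (adjusted p = 0.395, limma), which is -0.63 once the shift of the median gene is taken off.

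Within each array, differences between the paralogs' log2 ratios do not move when the whole array is shifted. They are given here for the brightest probe of each gene. Gadd45a stood 2.02 above Gadd45b on array 1 and 2.63 above it on array 2 (mean difference 2.33 ± 0.43, 5.01-fold). Gadd45a stood 1.23 and 1.59 above Gadd45g (mean difference 1.41 ± 0.25, 2.66-fold). Gadd45g stood 0.79 and 1.04 above Gadd45b (mean difference 0.91 ± 0.17, 1.88-fold). By these probes the order Gadd45a, Gadd45g, Gadd45b was thus the same on both arrays, and each mean difference was several times its SD. The second Gadd45b probe lay 0.43 and 0.37 above the brighter, so with it both gaps to Gadd45b were narrower by that much. It still lay below Gadd45g on both arrays (-1.08 and -1.60 against -0.72 and -0.94). With 2 arrays an exact two-sided sign-flip test cannot give a p below 0.5, so no test of these differences is given. With the software's processed signals the mean differences were 2.35, 1.43 and 0.92, and with median centring in place of loess they were 2.26, 1.36 and 0.90.

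**Figure D2:**
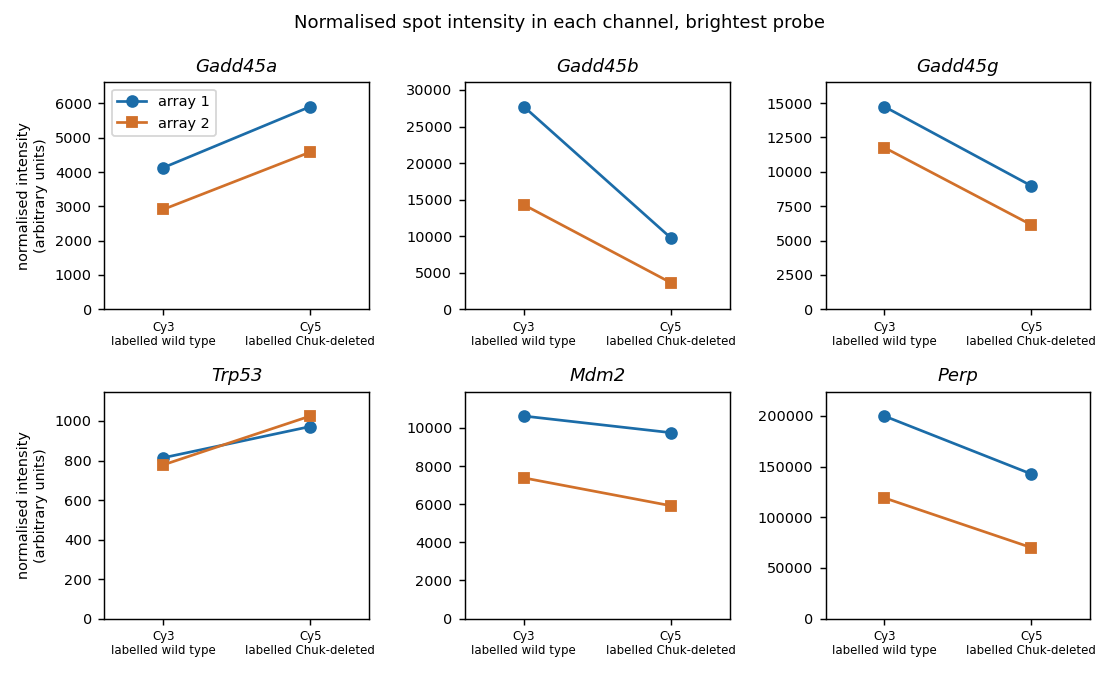
Normalised intensity (arbitrary units, linear axes from 0) of the brightest probe of 6 members in the Cy3 channel (labelled wild type) and the Cy5 channel (labelled Chuk-deleted), with a line for each array after loess. Gadd45b drops from 27720 to 9769 on array 1 and from 14290 to 3639 on array 2, Gadd45g and Perp drop less, and Gadd45a and Trp53 rise; with another centring Gadd45a (-0.17) and Trp53 (-0.43) lie below 0 on the log2 scale under spike-in scaling, and Perp (0.30) and Mdm2 (0.49) above 0 with median centring alone.

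Ccng1 encodes cyclin G1, a p53 target that recruits a phosphatase to Mdm2. Its brighter probe A_52_P612803 read 0.26 and 0.38 (mean 0.32 ± 0.09, 1.25-fold, adjusted p = 0.00354, limma). Its other probe A_51_P161612 gave 0.18 and 0.30 (mean 0.24 ± 0.09, 1.18-fold, adjusted p = 0.0114, limma). Both rose with loess, and lay at -0.44 and -0.52 under spike-in scaling.

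Sesn1 encodes sestrin 1, a stress protein that restrains mTORC1 signalling. Its 3 probes went apart. The brightest, A_51_P233954, gave 0.35 and 0.42 (mean 0.39 ± 0.05, 1.31-fold, adjusted p = 0.00121, limma) and lay at -0.37 under spike-in scaling. The dim probe A_51_P266644 gave -0.13 and -0.17 (mean -0.15 ± 0.02, adjusted p = 0.0447, limma), with Cy3 well above background on 1 of the 2 arrays. The third probe, A_52_P53596, gave -0.08 and -0.18 (mean -0.13 ± 0.07) and did not pass (adjusted p = 0.0886, limma). The brightest and the lowest probe were 0.48 and 0.59 apart, more than the spread of any of them between arrays. The mean of the 3 probes was 0.04 (adjusted p = 0.486, limma), so the call of Sesn1 as higher rests on 1 probe.

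Trp53inp1 encodes a p53-induced nuclear protein of cell death and autophagy, and its 2 probes also went apart. The brighter, A_51_P175580, gave -0.12 and -0.09 (mean -0.11 ± 0.02, adjusted p = 0.119, limma). The dimmer, A_52_P503387, gave 0.22 and 0.44 (mean 0.33 ± 0.15, 1.26-fold, adjusted p = 0.00581, limma), and -0.43 under spike-in scaling. They differed by 0.35 and 0.53, and their mean of 0.11 did not pass (adjusted p = 0.117, limma). No direction is given for this gene.

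Bbc3 encodes PUMA, the BH3-only protein through which p53 triggers apoptosis. Its probe A_51_P248122 gave log2 ratios of -0.09 and -0.02 (mean -0.05 ± 0.05) from intensities of 6276 and 5895 on array 1 and 5065 and 4997 on array 2. With loess the channels were nearly as bright as each other, and the mean did not pass the test (adjusted p = 0.402, limma). This too rests on the centring, since the gene was called higher with median centring (0.63) and lower under spike-in scaling (-0.81).

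Perp was bright in both channels, at normalised intensities of 199900 in Cy3 and 142700 in Cy5 on array 1 and of 119100 and 70070 on array 2. Its probe A_51_P317941 read -0.49 and -0.77 (mean -0.63 ± 0.20, 1.54-fold lower, adjusted p = 0.000709, limma). Before background correction and loess, Cy5 was the brighter channel for this probe, as it was for the median gene spot. The probe then read 107800 in Cy3 and 264600 in Cy5 on array 1 and 67420 and 123800 on array 2. Cy3 was the brighter channel on both arrays with loess, and 7.1% of all genes had a lower mean, while with median centring alone the value was 0.30, or -0.23 once the shift of the median gene is taken off. In bulk RNA, fewer cells of a type and less RNA per cell cannot be told apart. The summed intensity of the 7 suprabasal markers went from 23060 (Cy3) to 6231 (Cy5) on array 1 and from 14230 to 2172 on array 2, with a median log2 ratio of -2.14. That of the 6 melanocyte markers went from 61460 to 25330 and from 39490 to 14000, with Tyr not above background. That of the 6 basal markers went from 726100 to 1177000 and from 491200 to 808600, and that of the 8 fibroblast markers from 65540 to 110800 and from 34360 to 66130. The 3 leukocyte markers above background summed to 1953 and 2091 on array 1 and to 1278 and 1296 on array 2, with Ptprc, Cd207 and H2-Aa not above background. The part of these cell types in the values of Perp and of the other members was not tested.

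In the order of the loess means of each gene's brightest probe, Gadd45a (0.59) stood first, followed by Sesn1 (0.39), Trp53 (0.33) and Ccng1 (0.32). Bbc3 (-0.05), Trp53inp1 (-0.11) and Mdm2 (-0.22) came next, then Perp (-0.63), Gadd45g (-0.83) and Gadd45b (-1.74). Sesn1, Trp53 and Ccng1 lay within 0.09 of their neighbours on each array and are not separated by the spread between arrays, and neither are Bbc3, Trp53inp1 and Mdm2. The other steps, on arrays 1 and 2, were 0.17 and 0.23 from Gadd45a to Sesn1 and 0.35 and 0.40 from Ccng1 to Bbc3. Those from Mdm2 to Perp were 0.36 and 0.45, from Perp to Gadd45g 0.23 and 0.17, and from Gadd45g to Gadd45b 0.79 and 1.04. The order was taken from these same arrays, so a like sign of a step on both is no independent support. The upper steps also depend on the probe: the single-spot Trp53 probe had a mean of 0.57, and the dimmer Trp53inp1 probe one of 0.33. The mean of the 3 Sesn1 probes was 0.04. On array 2, 8 of the 10 genes lay farther from 0 than on array 1, as did 63.8% of all genes.

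**Figure D3:**
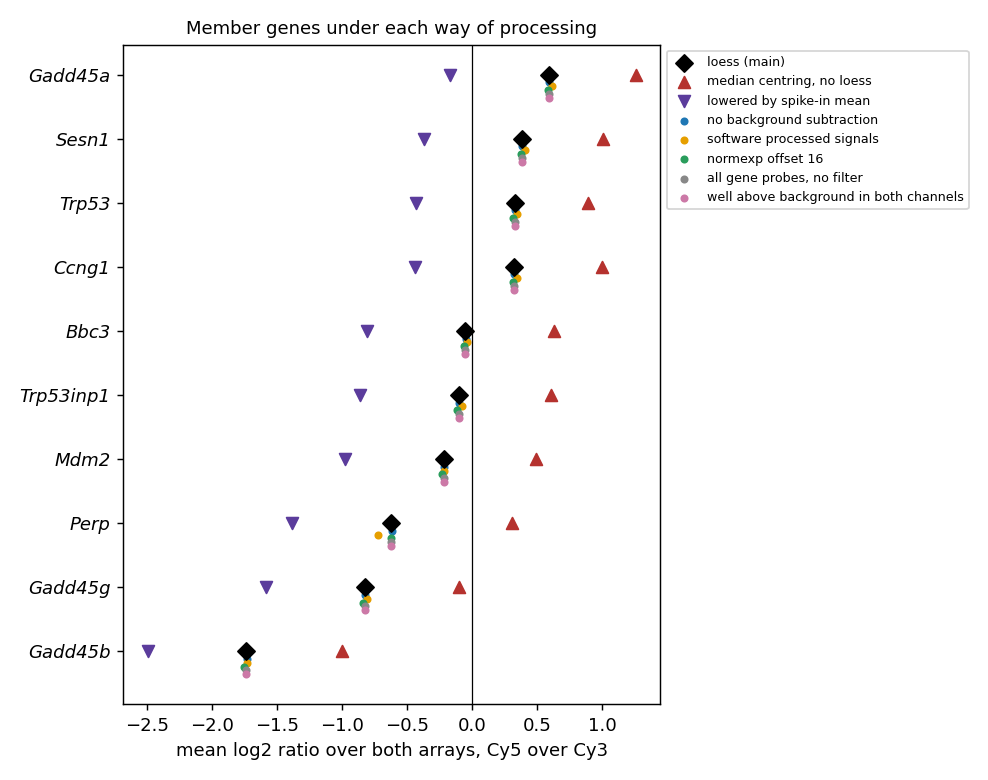
Mean log2 ratio over both arrays of the brightest probe of each of the 10 genes under 8 ways of processing; the black diamond is the loess fit, triangles are the other centrings (median centring up, spike-in scaling down), and small circles are changes of background correction or filter, drawn just below. The circles lie close to the diamonds, while the downward triangles lie a common step to the left and the upward triangles lie to the right by steps that differ between genes. Gadd45b stays below 0 in every setting (-2.50 to -1.002), and Gadd45a changes sign (-0.17 to 1.26).

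Further p53 targets, outside the 10 genes, moved both ways with loess, as did genes at large. Of 38 listed, all were measured above background, and 13 rose and 10 fell. Over all genes 33.0% rose and 28.3% fell, so both counts lie near the background. The median was 0.05 against 0.02 for all genes. Under spike-in scaling 1 was higher and 37 lower, against 2% and 91% of all genes. With median centring 32 were higher and 1 lower, against 74.8% and 7.2%. The death receptor gene Fas rose most, at 1.49 and 1.65 (mean 1.57 ± 0.12, 2.97-fold, adjusted p = 2.26e-05, limma), and it was the gene that stayed higher under spike-in scaling (0.81). The polo-like kinase gene Plk3 (-0.95 ± 0.22), the stress cytokine gene Gdf15 (-0.76 ± 0.20) and Pmaip1 (-0.56 ± 0.09), which encodes the BH3-only protein NOXA, fell with loess. With median centring alone Plk3 and Gdf15 lay at only -0.16 and -0.12, and Pmaip1 lay at 0.23. Cdkn1a, the p21 cell cycle inhibitor and best known p53 target, was singled out after its values were seen and stood at -0.25 and -0.38 (mean -0.32 ± 0.09, adjusted p = 0.00374, limma), and at 0.40 with median centring alone.

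Of 20 regulators and relatives of p53, 18 were measured above background, with a median of 0.04. With loess 6 rose and 5 fell, against 33.0% and 28.3% of all genes. Under spike-in scaling the counts were 1 and 15, against 2% and 91% of all genes. With median centring they were 16 and 0, against 74.8% and 7.2%. Atr and Trp53rk were matched to no probe. The relatives of p53 rose: Trp73 gave 1.67 and 1.36 (mean 1.52 ± 0.22, 2.86-fold, adjusted p = 4.49e-05, limma), and Trp63, the master regulator of the basal epidermis, gave 0.81 and 0.997 (mean 0.90 ± 0.13, adjusted p = 9.92e-05, limma). Under spike-in scaling Trp73 stayed higher (0.76), while Trp63 lay at 0.14 and did not pass (adjusted p = 0.233, limma). Cdkn2a, which encodes the Mdm2 inhibitor ARF and the CDK inhibitor p16, rose by 0.68 on each array with loess and lay at -0.08 under spike-in scaling. Trp53bp2, the p53 cofactor ASPP2, fell by 0.48 ± 0.02 with loess and lay at 0.16 with median centring alone. The other genes that fell with loess were the acetyltransferase genes Ep300 and Crebbp and the ASPP family genes Ppp1r13b and Ppp1r13l, and the other genes that rose were Chek2, Prkdc and the p53 inhibitor gene Mdm4 (0.15 on each array). These 7 were named after their values were seen, and among them only Ep300 kept its side of 0 under both other centrings (-0.09 with median centring alone).

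Partners of the GADD45 proteins and stress kinases numbered 16, all measured above background, with a median of -0.03. With loess 5 rose and 6 fell, against 33.0% and 28.3% of all genes. Under spike-in scaling the counts were 0 and 15, against 2% and 91% of all genes. With median centring they were 13 and 1, against 74.8% and 7.2%. Mapk8, the gene of the stress kinase JNK1, rose (0.71 and 0.77, mean 0.74 ± 0.05, adjusted p = 0.000104, limma) and lay at -0.02 under spike-in scaling. The kinase gene Map3k5 fell by 0.62 ± 0.21 and kept its direction with median centring alone (-0.28). Cdk1 (-0.49 ± 0.03), the mitotic kinase that GADD45 proteins bind, and Map2k4 (-0.44 ± 0.10), which acts on JNK and p38, fell with loess and lay at 0.13 and 0.17 with median centring alone. Map3k4, the gene of MEKK4, the kinase that GADD45 proteins activate, was singled out after its values were seen and lay at -0.37 and -0.49 on the arrays (-0.43 ± 0.08, adjusted p = 0.000966, limma), and at 0.25 with median centring alone.

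Genes of the desmosome, the junction that holds Perp, fell in 11 of 12 and rose in 0, against 28.3% and 33.0% of all genes. The median was -0.86, or -0.20 with median centring alone. With that centring 3 were higher and 6 lower, against 74.8% and 7.2% of all genes. Under spike-in scaling all 12 were lower, as were 91% of all genes. Dsg1a, a desmosomal cadherin, fell at least 4.02-fold, and its Cy5 signal was on neither array well above background (adjusted p = 8.17e-06, limma). The envelope and plaque genes Evpl (-1.93 ± 0.46) and Ppl (-1.68 ± 0.56) and the cadherin gene Dsc2 (-1.85 ± 0.41) fell by more than Perp and stayed below 0 under all 3 centrings. Pkp2, which stood at 0.14 ± 0.08 (adjusted p = 0.0771, limma), was the member that did not pass. Of the marker sums given beside Perp, the suprabasal and melanocyte ones moved the same way and the basal and fibroblast ones the other way. The part of these cell types in the desmosome values was not tested.

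Of 5 relatives of cyclin G1 or of its partners, 4 were measured above background and 3 fell (1 lower and 3 higher with median centring). Of all genes, 28.3% fell with loess, and 7.2% were lower and 74.8% higher with median centring. Ppp2r4 was matched to no probe. Ccng2, the gene of cyclin G2, gave -1.25 and -1.08 (mean -1.16 ± 0.12, 2.24-fold lower, adjusted p = 4.45e-05, limma) and stayed below 0 with median centring alone (-0.53), while its paralog Ccng1 lay above 0 with loess. Ccni (-0.34 ± 0.02) and the cyclin G kinase gene Gak (-0.28 ± 0.13) fell with loess and lay at 0.33 and 0.38 with median centring alone.

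**Figure D4:**
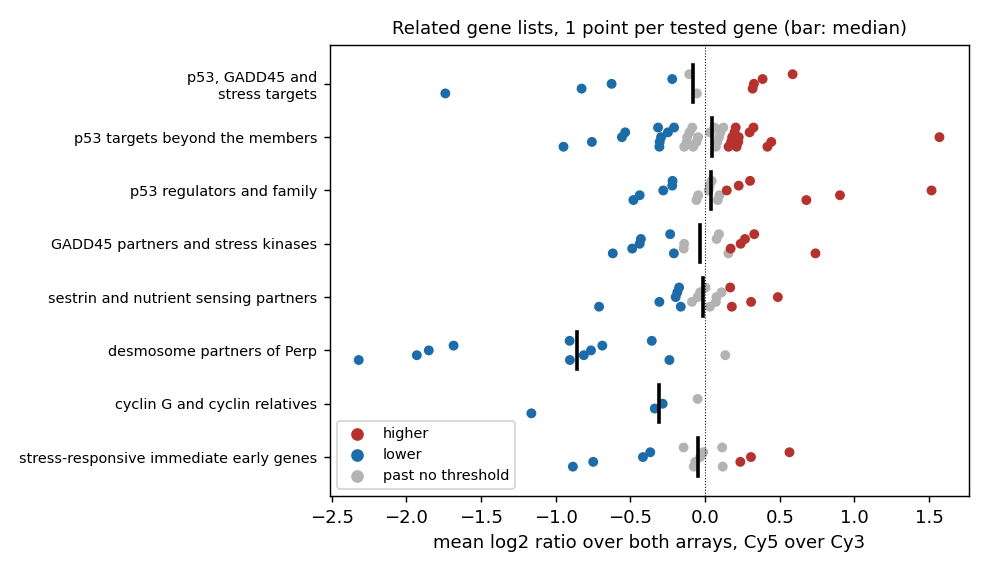
Mean log2 ratio over both arrays, with loess, of every tested gene in the 10-gene set and in 7 related lists, 1 point per gene, red where it rose, blue where it fell and grey where it did not pass the limma threshold, with a black bar at the list's median. The desmosome partners lie furthest to the left (median -0.86), and the other lists of at least 14 genes have medians between -0.05 and 0.05; median centring alone raises the desmosome median to -0.20 and that of the further p53 targets to 0.62, and spike-in scaling takes the latter to -0.71.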

How the data were processed

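Per the file headers, the scans of the two-colour arrays were read by Agilent Feature Extraction 9.1.3.1. The deposited scanner files hold the mean spot intensity and the median local background in each channel, neither corrected, per the file headers. Also deposited are the software's processed intensity, background subtracted and dye normalised, the log10 ratio of Cy5 over Cy3 made from it, and an error-model p-value for that ratio, per the file headers. The deposited value table of the series equalled that log10 ratio column to within 0.005.

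Here, in R 4.3.3 with limma 3.58.1 and data.table (version 1.17.8), the deposited intensities were corrected by normexp (offset 50) and turned into log2 ratios, with loess within each array and control spots at weight 0. Outlier spots (51 and 18) and controls were left out, and spots of a probe were averaged. Testing a probe required that on each array most of its spots were well above background in Cy3 or in Cy5 (23519 probes). Means were tested against 0 with lmFit and eBayes (1 residual and 5.20 prior degrees of freedom, the latter estimated anew under each alternative), two-sided, with Benjamini-Hochberg adjustment at 0.05, and the code was tested on simulated data. Well above background were 59.1% and 53.2% of gene spots in Cy3 and 64.5% and 57.4% in Cy5; the number of arrays limits the precision. The tested probe with the highest mean intensity stood for a gene. Names came from the files or, for the lists, from RefSeq genes (GRCm38.p6).

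The rule for named genes took all members with every probe, Chuk and, from each list, at most 4 called genes in order of absolute change, or else the 2 brightest. Members and lists were chosen with earlier results of these data known, and none of their counts is independent support. No set test was run. The at-least fold of a dim gene sets the bright channel against the lowest signal well above background. Alternatives were median centring without loess, spike-in scaling (subtracting an array's mean over 10 spike-in probes), no background subtraction, the processed signals, offset 16, no filter, a filter on both channels, the mean of a gene's probes, and each array alone.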

Additional observations from a re-analysis of the deposited data

How the results depend on the processing

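The ratio within an array already pairs both RNAs, and no fit with a replicate block was possible, because each replicate number names 1 array. Of the 17 member probes, 17 kept their direction on each array alone, where no test is possible and no counts were run. Centring changed directions. Median centring without loess gave Mdm2 at 0.35 and 0.49 and Perp at 0.30, with 8 members higher and 1 lower and, over all genes, 10281 higher and 988 lower. Spike-in scaling gave Trp53 at -0.43 and -0.19, Trp53inp1 (A_52_P503387) at -0.43, Ccng1 at -0.44 and -0.52, Sesn1 (A_51_P233954) at -0.37 and Gadd45a at -0.17, with 0 members higher and 9 lower and, over all genes, 281 higher and 12509 lower. Spike-in scaling moves all genes of an array by 1 amount by construction, while median centring also leaves out the loess curve, so its steps differ between genes. The estimated prior degrees of freedom were infinite in both of these fits, 2.45 with the processed signals and 5.2 with loess, so these counts of calls rest on different estimates of spread. With the software's processed signals 4 probes lost the threshold, both of Mdm2 (-0.22 and -0.27), the dimmer of Ccng1 (0.24) and the dim Sesn1 probe A_51_P266644 (-0.25), at values no nearer to 0 than with loess, and 3 members were lower. The mean of a gene's probes left 3 members higher and 4 lower. Without background subtraction, with offset 16, with no filter and with the filter on both channels, 4 members were higher and 4 lower. Differences between the GADD45 paralogs moved by less than their SD with the processed signals and without background subtraction. Only 2 arrays without a dye swap limit every value, and the dimmest member probes, A_51_P266644 and A_52_P53596 of Sesn1, lay nearest to background.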

Other observations

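Genes of the rapid stress response that is often seen beside GADD45 induction moved both ways with loess. Of 14 immediate early and stress genes, all measured above background, 3 rose and 4 fell, against 33.0% and 28.3% of all genes. The median was -0.05 against 0.02 for all genes. Under spike-in scaling the counts were 0 and 13, against 2% and 91% of all genes. With median centring they were 10 and 1, against 74.8% and 7.2%. The stress transcription factor gene Atf3 gave log2 ratios of -0.71 and -1.06 (mean -0.88 ± 0.24, adjusted p = 0.000294, limma), and Ier3 gave -0.53 and -0.97 (mean -0.75 ± 0.31, adjusted p = 0.00114, limma). With median centring alone Atf3 lay at -0.25, while Ier3, at -0.02, showed almost no change. Zfp36, whose product destabilises cytokine messages, fell by 0.42 ± 0.20 with loess and lay at 0.21 with median centring alone. Egr1 rose by 0.56 ± 0.18 with loess and lay at -0.19 under spike-in scaling. The remaining called genes, named after their values were seen, were Ddit4 and Jun (higher) and Myc (lower). Under spike-in scaling Ddit4 and Jun lay at -0.45 and -0.52, and with median centring alone Myc lay at 0.375. Fos, also named after its values were seen, stood at -0.03 ± 0.01 and did not pass (adjusted p = 0.601, limma).

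Among 18 genes of sestrins and of nutrient sensing through mTORC1, all were measured above background, with a median of -0.01. With loess 4 rose and 6 fell, against 33.0% and 28.3% of all genes. Under spike-in scaling the counts were 0 and 18, against 2% and 91% of all genes. With median centring they were 17 and 0, against 74.8% and 7.2%. Sqstm1, the autophagy receptor p62 that sestrins bind, fell by 0.71 on each array (adjusted p = 0.000107, limma) with loess and lay at 0.11 with median centring alone. Its partner Keap1 gave 0.40 and 0.57 (mean 0.49 ± 0.12, adjusted p = 0.000863, limma), and -0.27 under spike-in scaling. Wdr24, of the GATOR2 complex to which sestrins bind, rose by 0.31 ± 0.09 with loess and lay at -0.45 under spike-in scaling. Sesn3, a paralog of Sesn1, fell by 0.31 ± 0.06 with loess and lay at 0.25 with median centring alone.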
